A study of Mus musculus with 6 samples.

Results

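The ERBB receptors and their EGF-family ligands were compared between MPC, a mouse gastric adenocarcinoma cell line, and MPC-PTX, a derivative of it that is resistant to paclitaxel (PTX). The 10 genes, 3 receptors (Egfr, Erbb2 and Erbb3) and 7 ligands (Areg, Ereg, Hbegf, Tgfa, Btc, Epgn and Nrg1), were taken by name from a table of read counts for 21959 genes, and 9 of them had enough counts to enter the 11795 genes tested. Each line was measured by RNA sequencing in 3 libraries, and the study calls the lines MTC and MTC-R. Both lines carry the genotype CDH1-/-;Trp53-/-, since they descend from gastric organoids of C57BL/6J mice in which floxed alleles were removed with Mist1-CreER, and both were grown in serum-containing medium. MPC-PTX had passed more than 30 cycles of PTX, whereas the MPC libraries are labelled as the control. Each line is 1 clone obtained by monoclonal selection, so a difference between the lines cannot be told apart from a difference between 2 clones. The labels do not say whether the 3 libraries of a line came from separate cultures, and the p-values then measure only the spread between these libraries, which may be technical.

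ERBB proteins are receptor tyrosine kinases that pair with each other when a ligand binds. EGFR binds amphiregulin, epiregulin, HB-EGF, TGF-alpha, betacellulin, epigen and EGF, while ERBB3 and ERBB4 bind the neuregulins. ERBB2 has no known ligand of its own and serves as a partner, and ERBB3 has little kinase activity and passes the signal to PI3 kinase through its partner. The ligands are made as membrane proteins and are released by proteases, mainly ADAM17 and ADAM10. In the stomach, EGFR ligands drive renewal and repair of the mucosa, and amplification of ERBB2 is a known event in gastric cancer.

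The libraries held 16574580 to 23148182 counts, with 13897 to 14295 genes detected, and all 6 carried the same batch number. MPC replicates 1 and 3 stood apart. In MPC replicate 3, the deviation of a gene from the mean of its line followed the GC content of its transcripts (Spearman's rho across genes, which are not independent replicates, of -0.58, against 0.47 and 0.35 in MPC replicates 1 and 2). In MPC-PTX replicates 1 to 3 the rho was 0.27, -0.01 and -0.27, the same order by replicate number. Deviations from the mean of a line balance out, so opposite signs within a line are forced. MPC replicate 1 was high in genes induced by the ERK kinases, as described at the end of the results. The spread between libraries, given as the biological coefficient of variation of the fitted counts, was 17.9% in MPC and 3.01% in MPC-PTX. Cdh1 had 2555 to 2812 counts in MPC and 2217 to 3068 in MPC-PTX, and Trp53 had 63 to 120 and 111 to 142. Counts summed per gene do not tell exons apart, and both lines carry the same deletions, so these counts do not check the labels.

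The 3 receptors fell in MPC-PTX, and 3 ligands, Ereg, Nrg1 and Areg, rose (adjusted p below 0.05, edgeR's quasi-likelihood test, adjusted by the Benjamini-Hochberg method over all tested genes). Hbegf, Tgfa and Btc did not pass, and Epgn was too low to test. The 6 of 9 members called stand against 29.7% of all tested genes called in either direction, 14.1% higher and 15.6% lower. By the rule in the study's methods (log2 fold change beyond 1 in size, unadjusted p below 0.05) Ereg was called higher, against 3.77% of all tested genes, and no member was called lower, against 4.34%. The values of the lines did not overlap for 7 of the 9 members, against 46.9% of all tested genes. The median log2 fold change was -0.05 over the 9 members and 0.04 over all tested genes. In bulk RNA, fewer cells of a type and less RNA per cell cannot be told apart.

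**Figure D1:**
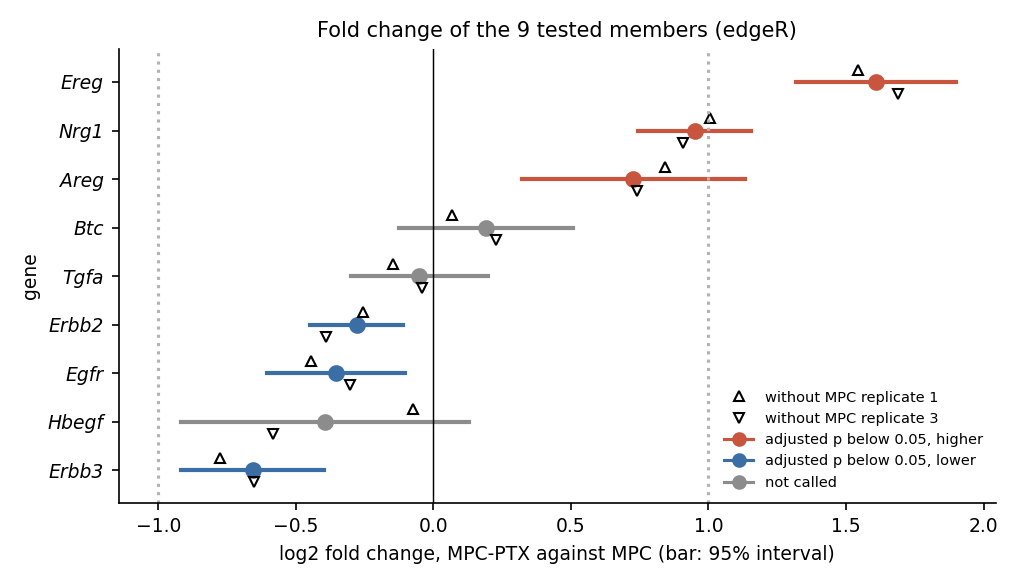
Log2 fold change of MPC-PTX against MPC for the 9 tested members, with the 95% interval of the edgeR fit as a bar, the estimates without MPC replicate 1 or replicate 3 as triangles, and dotted lines at -1 and 1. Ereg lies furthest to the right at 1.61, the 3 receptors lie between -0.66 and -0.28, and Hbegf moves from -0.40 to -0.07 without MPC replicate 1.

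Levels are given as CPM, which are counts scaled to a common library size with TMM. Erbb3 (ENSMUSG00000018166, chromosome 10 of GRCm38, 128567523 to 128589652, minus strand), the kinase-poor receptor of the neuregulins, stood at 153, 203 and 200 CPM in MPC replicates 1 to 3 and at 116, 121 and 116 CPM in MPC-PTX. All MPC-PTX libraries were below all MPC libraries, and MPC replicate 1 was the lowest of its line. The log2 fold change was -0.66 (standard error 0.11, 95% interval -0.92 to -0.40, adjusted p = 0.00467). It was -0.78 without MPC replicate 1 and -0.65 without MPC replicate 3, and Erbb3 was called in 14 of 15 alternative settings, all except the test against a log2 fold change of 1.

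Erbb2 (ENSMUSG00000062312, chromosome 11, 98412470 to 98437716, plus strand), the receptor without a ligand, stood at 171, 174 and 152 CPM in MPC and at 131, 137 and 141 CPM in MPC-PTX. The groups did not overlap, but the gap between the lowest MPC and the highest MPC-PTX library was smaller than the range within MPC. Its log2 fold change was -0.28 (standard error 0.07, 95% interval -0.45 to -0.11, adjusted p = 0.0252). The estimate was -0.26 without MPC replicate 1 and -0.39 without MPC replicate 3. The call was lost without MPC replicate 2 (adjusted p = 0.0983) and without each MPC-PTX library in turn (adjusted p = 0.118, 0.103 and 0.0736 without replicates 1, 2 and 3). Mien1 overlaps Erbb2 on the opposite strand and held at most 82 counts in a library, and the use of strand in the counting is not given in the sources used here.

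Egfr (ENSMUSG00000020122, chromosome 11, 16752203 to 16918158, plus strand), the receptor of the EGFR ligands, stood at 51.2, 58.0 and 66.6 CPM in MPC and at 45.3, 48.0 and 44.2 CPM in MPC-PTX. Each MPC library was above each MPC-PTX library, and the spread within MPC was larger than the gap between the groups. A log2 fold change of -0.35 was fitted (standard error 0.11, 95% interval -0.60 to -0.10, adjusted p = 0.0425). The call was lost when libraries were scaled by their size alone (adjusted p = 0.0656), without MPC replicate 2 (adjusted p = 0.114) and without each MPC-PTX library (adjusted p = 0.140, 0.102 and 0.151 without replicates 1, 2 and 3). A correction of the libraries for transcript GC content and length gave -0.67, the lowest of its estimates, against -0.44 without MPC replicate 1 and -0.30 without MPC replicate 3. Erbb4, the other neuregulin receptor, had 0 counts in the 3 MPC libraries and 1, 0 and 1 in MPC-PTX. A count of 0 over the MPC libraries allows up to 0.0501 CPM.

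Genes can be compared with each other only per length, here as CPM per kb of exon. In MPC, Erbb2 (31.8 ± 2.26, SD, n = 3) and Erbb3 (30.8 ± 4.63) overlapped, and Egfr (5.17 ± 0.685) was below both. In MPC-PTX, Erbb2 (26.2 ± 0.935) was above Erbb3 (19.5 ± 0.440), and Egfr (4.05 ± 0.174) again came last. The summed per-length level of the receptors was 67.7 ± 4.77 in MPC and 49.8 ± 1.09 in MPC-PTX, a ratio of 0.735 (exact two-sided permutation test, p = 0.1, the smallest that 3 libraries against 3 allow). Within that sum, the share of Erbb3 was 40.6%, 46.7% and 48.6% in MPC and 39.7%, 39.7% and 38.3% in MPC-PTX, so that every MPC-PTX library was below every MPC library (exact permutation p = 0.1). The share of Erbb2 was 47.1% ± 4.79 in MPC and 52.6% ± 1.12 in MPC-PTX, with overlap between the lines (exact permutation p = 0.3), and that of Egfr was 7.64% ± 0.851 and 8.13% ± 0.331 (exact permutation p = 0.4). The overlap for Erbb2 came from MPC replicate 1, at 52.2% against 46.2% and 42.8% in the other MPC libraries. Without that library the difference was 8.12 percentage points in place of 5.54 for Erbb2 and -8.40 in place of -6.04 for Erbb3. For Egfr it was 0.28 in place of 0.50. The exact permutation p was 0.1 for Erbb2 and for Erbb3. That library was singled out by its Erbb2 share, so leaving it out had to end the overlap. The p for Erbb2 without it is therefore no support for a difference.

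**Figure D2:**
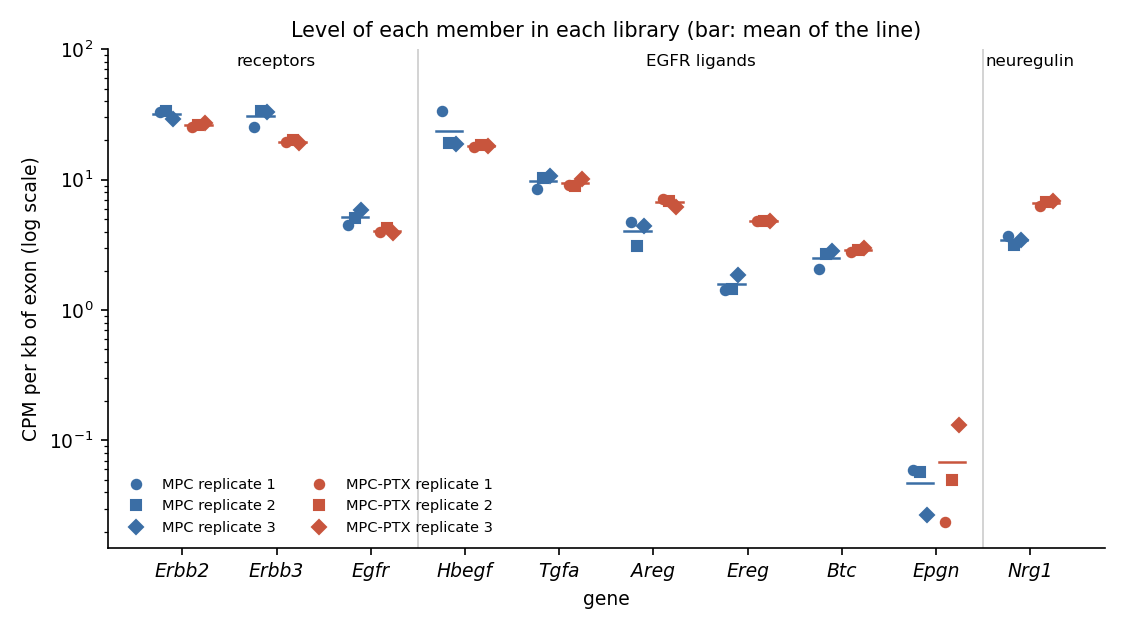
Level of each member in each of the 6 libraries, in CPM per kb of exon on a log scale, with MPC in blue, MPC-PTX in red, the shape of a point for the replicate and a bar for the mean of the line. Ereg and Nrg1 show the widest gap between the lines, Hbegf has 1 MPC library above the other 5, and Epgn lies below every other member.

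Ereg (ENSMUSG00000029377, chromosome 5, 91074622 to 91093646, plus strand) encodes epiregulin, a ligand that binds EGFR and ERBB4 with low affinity. It had 111, 116 and 159 counts in MPC and 463, 443 and 335 in MPC-PTX, which are 5.90, 5.98 and 7.64 CPM against 19.78, 19.97 and 19.90 CPM. The MPC-PTX libraries were nearly equal, and all of them were well above the highest MPC library. The log2 fold change was 1.61 (standard error 0.12, 95% interval 1.32 to 1.90, adjusted p = 0.000161), a fold of 3.05. Ereg was called in all 15 alternative settings, with estimates of 1.43 to 1.69, and it was the member called against a log2 fold change of 1 (adjusted p = 0.00707).

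Areg (ENSMUSG00000029378, chromosome 5, 91139599 to 91148432, plus strand) encodes amphiregulin, a heparin-binding ligand of EGFR. Its levels were 5.74, 3.76 and 5.33 CPM in MPC and 8.59, 8.39 and 7.55 CPM in MPC-PTX, from 73 to 201 counts per library. The groups did not overlap, and MPC replicate 2 was the lowest library. The log2 fold change was 0.73 (standard error 0.17, 95% interval 0.32 to 1.13, adjusted p = 0.0183), with 0.84 without MPC replicate 1 and 0.74 without MPC replicate 3. The call was lost without any 1 of the MPC-PTX libraries (adjusted p = 0.0759, 0.0737 and 0.0504 without replicates 1, 2 and 3).

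Ereg and Areg are neighbours on chromosome 5, in a run of 4 ligand genes in the order Epgn, Ereg, Areg and Btc that spans 375.53 kb, with gaps of 39.4, 46.0 and 209 kb. Epgn (ENSMUSG00000035020, 91027464 to 91035215, plus strand) had 2, 2 and 1 counts in MPC and 1, 2 and 4 in MPC-PTX, too few to test. The ratio of its summed counts, scaled for library size, was 1.36, with an exact interval at 95% of 0.371 to 5.43 that covers counting error only. Btc (ENSMUSG00000082361, 91357261 to 91402994, minus strand) encodes betacellulin, which binds EGFR and ERBB4, and it stood at 9.35, 12.1 and 12.8 CPM in MPC and at 12.6, 12.9 and 13.6 CPM in MPC-PTX. The lines overlapped, and the log2 fold change was 0.19 (95% interval -0.12 to 0.51, adjusted p = 0.326). Its estimate was positive in 13 of 15 alternative settings and -0.02 in both settings with the correction for transcript GC content and length.

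The 3 promoters of this run that RefSeq's table holds are shown because these adjacent genes differ in level and in change between the lines. Each is 300 bases of GRCm38.p6, from 250 bases before the start to 50 after it, on the strand of the gene. The windows are chr5:91139349-91139648 for Areg (plus), chr5:91027267-91027566 for Epgn (plus) and chr5:91402945-91403244 for Btc (minus). Capitals mark a cAMP response element (TGACGTCA), an AP-1 site (TGANTCA) or a TATA box (TATAAA), searched on both strands, and no match overlaps another.
Areg: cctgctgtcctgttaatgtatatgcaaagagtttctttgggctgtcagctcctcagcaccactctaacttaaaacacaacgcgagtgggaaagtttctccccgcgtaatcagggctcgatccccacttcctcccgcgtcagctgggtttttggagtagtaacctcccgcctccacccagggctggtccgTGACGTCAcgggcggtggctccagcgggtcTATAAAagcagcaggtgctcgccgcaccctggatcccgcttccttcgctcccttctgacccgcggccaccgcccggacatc
Epgn: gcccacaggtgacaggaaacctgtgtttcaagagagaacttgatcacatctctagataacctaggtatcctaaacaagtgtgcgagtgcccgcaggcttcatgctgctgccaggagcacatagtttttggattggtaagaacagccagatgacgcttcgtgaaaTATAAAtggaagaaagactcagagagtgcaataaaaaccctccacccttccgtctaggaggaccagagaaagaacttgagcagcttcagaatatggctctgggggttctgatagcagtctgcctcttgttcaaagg
Btc: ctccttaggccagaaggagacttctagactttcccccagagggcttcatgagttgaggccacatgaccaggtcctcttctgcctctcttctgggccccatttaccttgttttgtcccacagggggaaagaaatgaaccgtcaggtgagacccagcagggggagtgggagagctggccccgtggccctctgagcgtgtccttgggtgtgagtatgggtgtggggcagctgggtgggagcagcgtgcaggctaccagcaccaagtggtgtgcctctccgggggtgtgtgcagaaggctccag
The Areg window holds TGACGTCA with its first base at -61 and TATAAA at -31, the Epgn window holds TATAAA at -86, and the Btc window holds none of these letters. Among 32851 RefSeq promoters of this length, 1.79% hold TGACGTCA, 7.81% TGANTCA and 13.6% TATAAA. A match is a description of the sequence and not a measured site. Positions count from the start in RefSeq, which for Epgn lies inside the gene span given above. The Epgn TATAAA therefore lies nearer to the start of that span than -86. The windows of Egfr, Erbb2 and Tgfa, the other members looked up in the table and found, hold none of these motifs.

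The rise of Ereg and Areg was set beside their surroundings. Of 16 other tested genes within 1 Mb of Ereg, which include Areg and Btc, 7 were called higher and 4 lower. Areg is 1 of those called higher, so its own rise is part of this count. Over all tested genes 14.1% were called higher and 15.6% lower. The median log2 fold change of the 16 genes was 0.31, against 0.12 for the 778 tested genes of chromosome 5 and 0.04 for all tested genes. Cxcl2, a neutrophil-attracting chemokine, rose from 15.9 to 41.0 CPM (log2 fold change 1.37, standard error 0.20, adjusted p = 0.00325). Ppbp, a platelet chemokine of the same cluster, fell by 1.16 on the log2 scale (standard error 0.15, adjusted p = 0.00163), and Parm1, a mucin-like membrane protein that lies beyond Btc, fell by 1.59 (standard error 0.08, from 64.5 to 21.4 CPM). The called genes around the ligands thus pointed both ways, and the part of the surroundings in the result for Ereg was not tested.

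**Figure D3:**
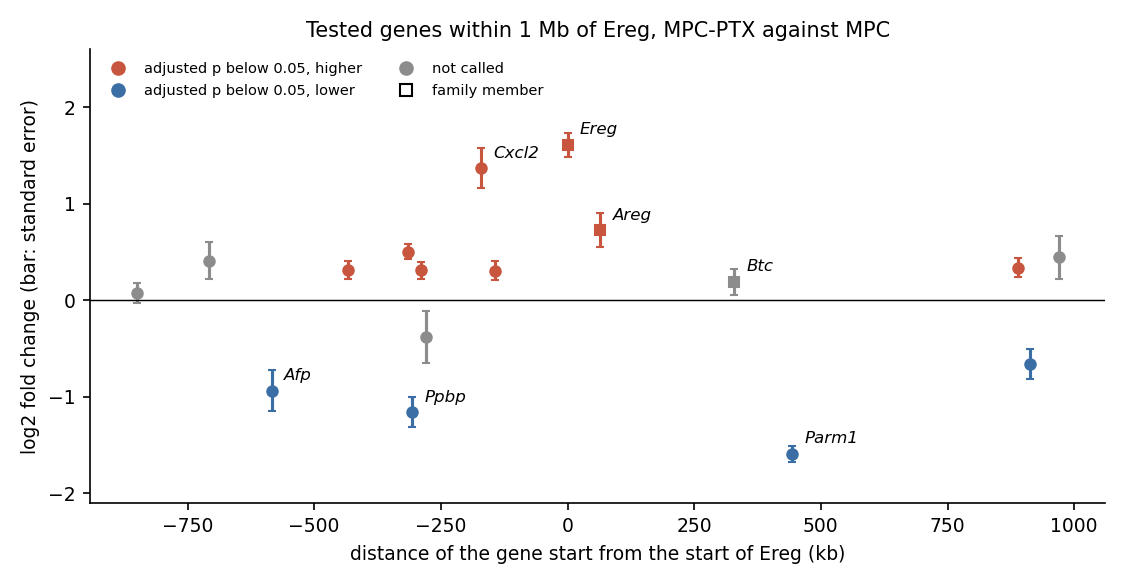
Log2 fold change (bar, standard error) of each tested gene within 1 Mb of Ereg against the distance of its start from that of Ereg in kb, with red for genes called higher, blue for genes called lower, grey for genes not called and squares for members of the family. Ereg at 1.61, Cxcl2 at 1.37 and Areg at 0.73 stand above 0, while Ppbp at -1.16 and Parm1 at -1.59 stand below.

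Hbegf (ENSMUSG00000024486, chromosome 18, 36504927 to 36515805, minus strand) encodes HB-EGF, a heparin-binding ligand of EGFR and ERBB4. It stood at 161, 92.9 and 91.1 CPM in MPC and at 86.1, 88.8 and 87.5 CPM in MPC-PTX. All MPC-PTX libraries were below all MPC libraries, but MPC replicate 1 was 1.77 times the lowest MPC library, while MPC replicates 2 and 3 lay just above the MPC-PTX libraries. The fitted log2 fold change of -0.40 did not pass the threshold (standard error 0.22, 95% interval -0.92 to 0.13, adjusted p = 0.225). Without MPC replicate 1 it was -0.07 (adjusted p = 0.353), and without MPC replicate 3 it was -0.59 (adjusted p = 0.0927). Hbegf was not called in any of the 15 alternative settings.

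Tgfa (ENSMUSG00000029999, chromosome 6, 86195223 to 86275719, plus strand) encodes TGF-alpha, the EGFR ligand classically linked to growth of the gastric mucosa. Its levels were 54.6, 66.8 and 68.9 CPM in MPC and 59.2, 58.4 and 66.1 CPM in MPC-PTX. The groups overlapped, and the log2 fold change was -0.05 (95% interval -0.30 to 0.20, adjusted p = 0.749). Egf, the founding ligand, had 2, 4 and 10 counts in MPC and 4, 7 and 9 in MPC-PTX, a ratio of 1.21 (exact interval 0.598 to 2.505, counting error only).

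Nrg1 (ENSMUSG00000062991, chromosome 8, 31814551 to 32884029, minus strand) encodes neuregulin 1, a ligand of ERBB3 and ERBB4 that is made in many isoforms, and the annotation gives it 18 transcripts. It stood at 38.1, 32.4 and 35.8 CPM in MPC and at 64.7, 69.3 and 71.5 CPM in MPC-PTX. The groups were well apart, and each MPC-PTX library was above the highest MPC library by more than the range within either line. The log2 fold change was 0.95 (standard error 0.09, 95% interval 0.74 to 1.15, adjusted p = 0.000339), a fold of 1.93. It was 1.00 without MPC replicate 1, 0.91 without MPC replicate 3 and 0.75 with the correction for transcript GC content and length, and Nrg1 was called in 14 of 15 alternative settings, all except the test against a log2 fold change of 1. Counts summed per gene do not tell these isoforms apart, and a second identifier with the name Nrg1 had 0 counts in each library.

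Neuregulin 1 thus rose in a line in which the mRNA of its receptor Erbb3 fell. Of the other neuregulins, Nrg2 had 2, 0 and 0 counts in MPC and 0 in each MPC-PTX library, and Nrg3 had 0 counts in all 6, which allows up to 0.0501 CPM in MPC and 0.0487 in MPC-PTX. Nrg4 had 12, 8 and 14 counts in MPC and 6, 9 and 7 in MPC-PTX, a ratio of 0.628 (exact interval 0.350 to 1.11, counting error only). None of the 5 relatives outside the members, Erbb4, Egf, Nrg2, Nrg3 and Nrg4, had enough counts to be tested.

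The surroundings of the other members differed, and their counts stand against 14.1% of all tested genes called higher and 15.6% called lower. Of 6 tested genes within 1 Mb of Nrg1, 3 were called higher and 0 lower, with a median log2 fold change of 0.32, against 0.26 for the 663 tested genes of chromosome 8. Around Erbb3, 20 of 47 tested genes were called lower and 3 higher, with a median of -0.23, against -0.18 for the 549 tested genes of chromosome 10. Both members changed in the direction of their surroundings and by more than the median of these, and the part of the surroundings in the results was not tested. Of the genes near Erbb3, Lrp1, an endocytic receptor, fell by 1.26 on the log2 scale (standard error 0.18, adjusted p = 0.00262). Mmp19, a matrix metalloproteinase that lies closer to Erbb3, rose from 0.140 to 0.782 CPM (log2 fold change 2.47, standard error 0.62, adjusted p = 0.0214). Around Hbegf the median was -0.05 (36 genes, 4 higher and 7 lower), and Slc4a9, an anion exchanger gene that adjoins it, fell from 5.77 to 0.0427 CPM (adjusted p = 0.000262). Around Erbb2 the median was 0.03 (41 genes, 4 higher and 4 lower), and around Egfr it was 0.11 (6 genes, 1 higher and 0 lower). Grb7, an adaptor of ERBB2 that is encoded close to it and was singled out after its values were seen, stood at 162, 160 and 136 CPM in MPC and at 92.1, 91.2 and 88.2 in MPC-PTX (log2 fold change -0.76, standard error 0.08, adjusted p = 0.000705). Pgap3, Mien1 and Tcap, which start closer to Erbb2 than Grb7 does, were not called. By the rule for naming neighbours, the genes near Erbb2 were Srcin1, with a log2 fold change of -1.54, and Plxdc1 and Arl5c, with 1.93 and 1.57.

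Among the ligands, the order of the per-length levels in MPC was Hbegf (23.8 ± 8.25 CPM per kb, SD, n = 3), Tgfa (9.77 ± 1.19), Areg (4.07 ± 0.858), Nrg1 (3.43 ± 0.281), Btc (2.52 ± 0.400), Ereg (1.58 ± 0.238) and Epgn (0.0475 ± 0.0181). In MPC-PTX it was Hbegf (18.1 ± 0.284), Tgfa (9.43 ± 0.648), Areg (6.73 ± 0.454), Nrg1 (6.62 ± 0.336), Ereg (4.82 ± 0.0239), Btc (2.88 ± 0.117) and Epgn (0.0683 ± 0.0563). In both lines Areg and Nrg1 overlapped, and no other neighbours in this order did. Ereg and Btc exchanged places between the lines. With the longest transcript as gene length, an alternative added after the values were seen, Ereg and Btc still exchanged places, but Nrg1, which has many transcripts, came before Areg, at 6.55 ± 0.536 against 4.07 ± 0.858 CPM per kb in MPC and 12.7 ± 0.642 against 6.73 ± 0.454 in MPC-PTX, with no overlap. In MPC-PTX Nrg1 then overlapped Tgfa (13.5 ± 0.929), and in MPC Areg overlapped Btc (2.83 ± 0.449). The order of the 3 receptors was the same with both lengths.

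The sum over the ligands of EGFR, Nrg1 apart, was 50.0, 36.8 and 38.6 CPM per kb in MPC and 41.6, 42.0 and 42.5 in MPC-PTX. The ratio of the means was 1.01 (exact two-sided permutation p = 1), with the MPC-PTX libraries inside the range of MPC. MPC replicate 1 alone lay above the MPC-PTX libraries, and MPC replicates 2 and 3 lay below all of them. The near-equal means thus rest on MPC replicate 1. With the longest transcript as gene length the ratio was 0.941. Within the sum per kb of exon the makeup differed. The share of Ereg was 2.86%, 3.94% and 4.79% in MPC and 11.5%, 11.5% and 11.3% in MPC-PTX, and that of Areg was 9.74% ± 1.499 and 16.0% ± 1.24 (SD, n = 3). The share of Hbegf was 66.6%, 52.2% and 48.8% in MPC and 42.8%, 43.7% and 42.6% in MPC-PTX. For these 3 ligands the lines did not overlap, and the exact permutation p of each was 0.1, the smallest possible. Tgfa held 24.1% ± 6.31 and 22.4% ± 1.35 (exact permutation p = 0.8), and Btc 6.24% ± 1.82 and 6.86% ± 0.208 (exact permutation p = 1). MPC replicate 1 bore on several shares. Without it, the difference between the lines was -7.51 percentage points in place of -12.87 for Hbegf, 7.09 in place of 7.59 for Ereg and 6.11 in place of 6.26 for Areg. The Tgfa share then differed by -5.29 points in place of -1.66 and no longer overlapped (exact permutation p = 0.1). MPC replicate 1 was the only MPC library below MPC-PTX in that share, so leaving it out had to end the overlap. This p is therefore no support for a difference. The share of Btc then differed by -0.43 in place of 0.62, with the sign turned (exact permutation p = 0.2).

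**Figure D4:**
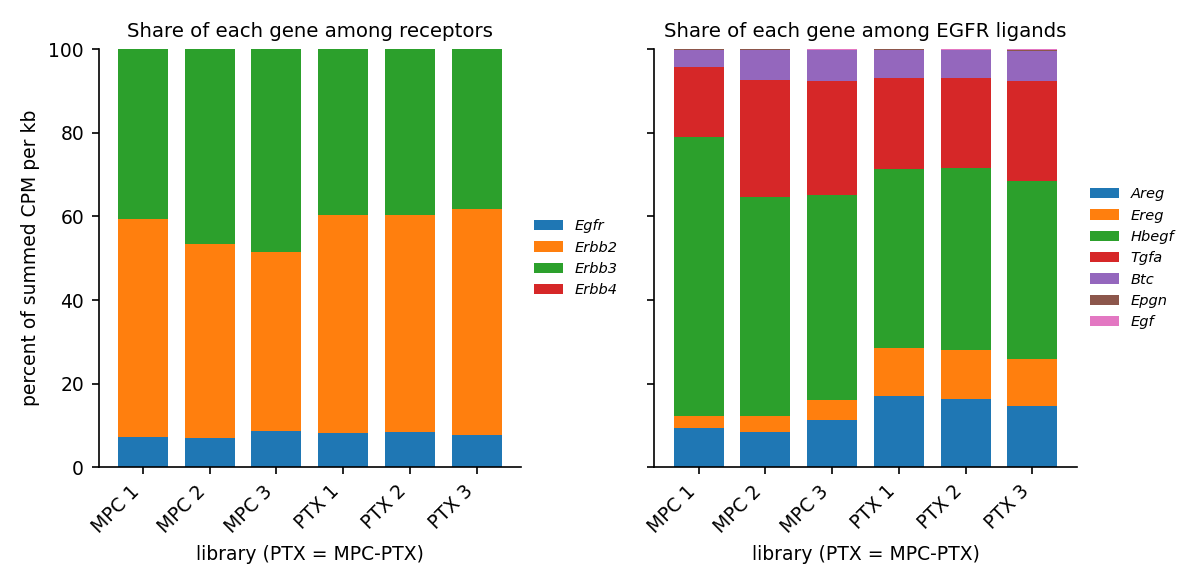
Share of each gene, in percent, in the summed CPM per kb of the receptors (left) and of the EGFR ligands (right) for each of the 6 libraries. The Erbb3 part of the left bars is smaller in MPC-PTX (38.3% to 39.7%) than in MPC (40.6% to 48.6%), and the Ereg part of the right bars is larger (11.3% to 11.5% against 2.86% to 4.79%).

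The ligands can signal to neighbouring cells from the membrane or, once released, at a distance, so the shedding proteases and their partners were read next. Of 11 tested genes in this list of 12, 2 rose and 2 fell, with a median log2 fold change of 0.10 against 0.04 over all tested genes. The 36.4% called compare with 29.7% of all tested genes. Adam9, a protease able to release HB-EGF, stood at 66.6, 70.6 and 108 CPM in MPC and at 135, 139 and 142 in MPC-PTX (log2 fold change 0.76, standard error 0.18, adjusted p = 0.0201). Adam15 rose by 0.37 (standard error 0.07, adjusted p = 0.00857). Adam17, the main sheddase of Areg, Ereg, Hbegf and Tgfa, stood at 60.2, 68.2 and 88.5 CPM in MPC and at 74.8, 77.6 and 76.2 in MPC-PTX (log2 fold change 0.08, 95% interval -0.24 to 0.40, adjusted p = 0.708). Adam10, the main sheddase of betacellulin and EGF, had a log2 fold change of 0.10 (95% interval -0.45 to 0.64, adjusted p = 0.782). The genes that fell were Frmd8, a partner of the iRhom proteins that carry ADAM17 to the surface (log2 fold change -0.31, adjusted p = 0.0341), and Bace2. Bace2, an aspartyl protease and a relative of the neuregulin-cleaving Bace1, went from 19.4, 31.6 and 25.1 CPM in MPC to 1.84, 1.53 and 2.495 in MPC-PTX (log2 fold change -3.71, standard error 0.24, adjusted p = 8.36e-05). Bace1 itself was not called, with a log2 fold change of -0.19 (adjusted p = 0.204). The counts of this list were 4 higher and 2 lower without MPC replicate 3, 1 and 1 without MPC replicate 2 or MPC-PTX replicate 1, and 0 and 1 without MPC-PTX replicate 2 or 3. With the correction for transcript GC content and length they were 5 and 3, where Rhbdf1, Rhbdf2 and Rhbdl2 were added above and Bace1 below. The calls over all tested genes moved too. They were 3020 higher and 3227 lower of 11896 without MPC replicate 3, and 2482 and 2425 of 11795 with this correction. They were 934 and 1222 of 11985 without MPC replicate 2, and 803 to 840 and 1077 to 1122 without an MPC-PTX library. Adam15, Adam17, Frmd8, Bace1 and the Rhbd genes were chosen after their values were seen.

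Of 16 tested inhibitors of ERBB receptors, 2 rose and 4 fell, or 37.5% called against 29.7% of all tested genes, with a median log2 fold change of -0.06. Lrig3, a membrane protein of the LRIG family, stood at 21.31, 23.05 and 22.97 CPM in MPC and at 8.46, 9.15 and 7.90 in MPC-PTX (log2 fold change -1.40, standard error 0.10, adjusted p = 0.000112). A place on this list does not show that a gene restrains these receptors in these lines. The others that fell were Ptprk, a receptor phosphatase that acts on EGFR (-0.59, adjusted p = 0.00433), Rnf41, a ubiquitin ligase for ERBB3 (-0.37, adjusted p = 0.0194), and Cblc, a ubiquitin ligase for EGFR (-0.36, adjusted p = 0.036). Rnf41 lies within 1 Mb of Erbb3 and is also 1 of the 20 genes called lower around it. Ptpn2 and Ubash3b rose. Errfi1, an inhibitor of the EGFR and ERBB2 kinases that is itself induced by their signal, was not called, with 273, 154 and 156 CPM in MPC and 267, 272 and 270 in MPC-PTX (log2 fold change 0.47, adjusted p = 0.153). Without MPC replicate 1, the MPC library where Errfi1 was highest, its log2 fold change was 0.80 (adjusted p = 8.51e-05). That library stood at the level of MPC-PTX, so leaving it out had to raise the estimate. That fit therefore cannot show whether Errfi1 rose. Ptpn1, a phosphatase of several receptors, had a log2 fold change of 0.05 (adjusted p = 0.632). The counts of this list were 3 higher and 5 lower without MPC replicate 1 and 4 and 4 without MPC replicate 3. They were 0 and 2 without MPC replicate 2 or any 1 of the MPC-PTX libraries. Over all tested genes there were 2201 higher and 2119 lower of 11998 without MPC replicate 1, and 3020 and 3227 of 11896 without MPC replicate 3. There were 934 and 1222 of 11985 without MPC replicate 2, and 803 to 840 and 1077 to 1122 without an MPC-PTX library. Of these genes, Ptprk, Rnf41, Cblc, Ptpn2 and Ubash3b were named after their values were seen.

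Of 34 adaptors and cytoplasmic signalling genes, 6 rose and 3 fell, or 26.5% called against 29.7% of all tested genes, with a median log2 fold change of 0.08. Akt1, a kinase downstream of PI3 kinase and the member of this list with the highest per-length level, fell from 548, 497 and 444 CPM in MPC to 385, 388 and 367 in MPC-PTX (log2 fold change -0.39, standard error 0.08, adjusted p = 0.0129). Grb7, given above, and Src (-0.39, adjusted p = 0.00533) were the others that fell. Among those that rose were Gab1, Pik3r2, Pik3r3, Stat3 and Stat5a, with log2 fold changes of 0.25 to 0.64. Nras was not called (-0.09, adjusted p = 0.469). Except for Akt1 and Nras, these genes were named after their values were seen. The counts of this list depended on single libraries and on the scaling. They were 8 higher and 8 lower with the correction for transcript GC content and length, and 13 and 8 without MPC replicate 3. They were 2 and 2 without MPC replicate 2, and 1 and 2 without any 1 of the MPC-PTX libraries. The calls over all tested genes moved in the same fits. They were 2482 higher and 2425 lower of 11795 with the correction, and 3020 and 3227 of 11896 without MPC replicate 3. They were 934 and 1222 of 11985 without MPC replicate 2, and 803 to 840 and 1077 to 1122 without an MPC-PTX library.

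Genes that ERK induces, including its own feedback inhibitors, were read next. Receptor activity was not measured, and whether the levels of these genes follow from the ERBB receptors was not tested. Of 23 tested genes, 5 rose and 0 fell, or 21.7% called against 29.7% of all tested genes (14.1% higher, 15.6% lower), with a median log2 fold change of 0.10. With the correction for transcript GC content and length, 6 were called higher and 1 lower, against 2482 and 2425 of 11795 tested genes. The 5 were the transcription factors Etv1, Etv4 and Etv5 and the feedback inhibitors Spred1 and Spred2. Etv1 stood at 1.06, 1.80 and 2.40 CPM in MPC and at 5.21, 5.73 and 4.81 in MPC-PTX (log2 fold change 1.57, standard error 0.26, adjusted p = 0.00463). Etv5 stood at 26.1, 20.3 and 17.9 CPM in MPC and at 39.3, 38.9 and 40.6 in MPC-PTX (0.89, standard error 0.14, adjusted p = 0.00347). Ier3 and Junb, the members with the highest per-length levels, were not called (0.22 and 0.10, adjusted p = 0.665 and 0.790).

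The list divided the MPC libraries. MPC replicate 1 was above both other MPC libraries for 16 of the 23 genes, or 69.6%, against 40.4% of all tested genes, and the median of its log2 difference from them was 0.54, against 0.01 over all tested genes. The summed level of the list was 2353 CPM in MPC replicate 1, 1339 and 1313 in MPC replicates 2 and 3, and 1975 to 2025 in MPC-PTX. Egr1, the gene with the widest spread, stood at 373, 44.6 and 45.9 CPM in MPC and at 310, 311 and 316 in MPC-PTX, and Myc at 207, 117 and 112 and at 202, 193 and 192. The MPC-PTX libraries lay below MPC replicate 1 and above MPC replicates 2 and 3 for both genes. Hbegf, itself a gene that ERK induces, was high in the same MPC library, and so was Errfi1. Without MPC replicate 1, 15 of the 23 genes were called higher, against 18.3% of all tested genes in that fit. In the same fit 1 gene of the list was called lower (Epha4), against 2119 of 11998 tested genes. Without MPC replicate 2 or any 1 of the MPC-PTX libraries, 2 were called higher. Over all tested genes, 934 of 11985 were called higher without MPC replicate 2 and 803 to 840 without an MPC-PTX library. In the fit without MPC replicate 1, Egr1 had a log2 fold change of 2.79 (adjusted p = 1.77e-06) and Myc of 0.78 (adjusted p = 0.000162). MPC replicate 1 was singled out by its values for these same genes, so leaving it out lowers their level in MPC. The calls of that fit therefore cannot show whether the list rose. The state of the cultures is not labelled, and its part in these values was not tested. Etv4, Etv5, Spred1, Spred2, Egr1, Myc and Epha4 were named after their values were seen.

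**Figure D5:**
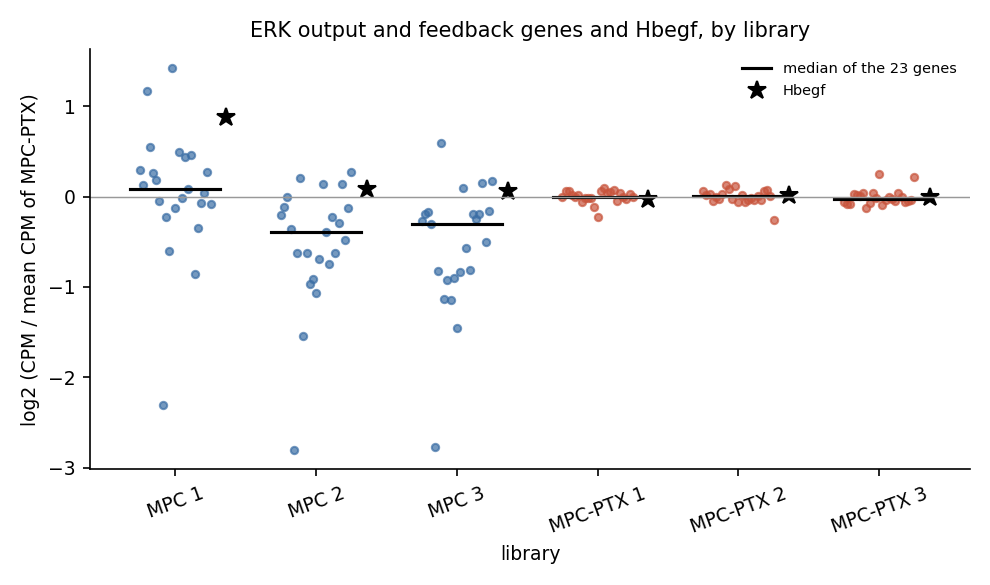
Log2 of the CPM of each of the 23 ERK output and feedback genes over its mean in MPC-PTX, by library, with a bar for the median of the genes and a star for Hbegf. MPC replicate 1 lies above MPC replicates 2 and 3 in its median and in Hbegf. The MPC-PTX libraries are centred near 0 by this scaling.

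The label of an epithelial gastric line was checked with marker genes. Over all tested genes 14.1% were called higher and 15.6% lower, with a median log2 fold change of 0.04. The 8 epithelial markers were all measured and all fell in MPC-PTX, with summed levels of 9560 to 11076 CPM in MPC and 5777 to 5963 CPM in MPC-PTX and a median log2 fold change of -0.81. These genes moved in the direction of the 3 receptors, and their part in the fall of the receptors was not tested. Of 12 gastric markers, 5 were tested, of which 4 fell and Sox2 rose, with summed levels of 624 to 804 CPM in MPC and 269 to 275 CPM in MPC-PTX. Of the 12 gastric markers, 4 (Tff1, Tff2, Gkn2 and Pgc) had 0 counts in all libraries, and the summed levels come from the others. These 4 and Sox2 were named after their values were seen. Markers of other cell types were low in both lines. The summed levels were 9.83 to 10.9 CPM in MPC and 8.63 to 9.92 in MPC-PTX for 8 fibroblast genes (1 of 2 tested fell), 11.3 to 12.8 and 9.80 to 10.7 for 8 leukocyte genes (0 of 1 tested called), of which Cd68 made up most, and 3.40 to 4.83 and 3.07 to 3.39 for 6 endothelial genes (0 of 2 tested called).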

How the data were processed

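Poly-A RNA of both lines was sequenced, and per the labels and the study's methods the reads were filtered with fastp 0.22.0 (submitters' processing notes) and mapped with HISAT2. The authors deposited raw counts per gene and library, not normalized and not pooled. Genome release, annotation, counting tool and use of strand are not given in the sources used here. Samples were grouped by the cell line label.

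Counts were scaled by TMM, passed through filterByExpr with the lines as groups (minimum count 10) and tested with edgeR 4.0.16 (glmQLFit, robust, and glmQLFTest; R 4.3.3) over all 6 libraries without covariates, with Benjamini-Hochberg adjustment over 11795 genes and a threshold of 0.05. The standard error is the log2 fold change divided by the square root of the F statistic. Positions and exon lengths were read from the GENCODE M21 annotation of GRCm38 by Ensembl identifier (11776 of the tested genes), and promoters from RefSeq, where 6 of the 10 members were matched and used. Shares and sums were tested with an exact permutation test. Intervals of count ratios and the limit set by a count of 0 (3 counts over a line) cover counting error only, since the reads carry no molecular identifiers. The test was checked on simulated data.

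The genes named were the 10 members, their 5 relatives, the list genes and neighbours within 1 Mb called at 0.05 with a log2 fold change beyond 1 in size, and the 2 genes of highest per-length level in each list. Not every neighbour that meets the rule is described. The members, lists, motifs and tests were chosen with earlier results of these data known. The lists hold no gene set test. Ptprg, on the list of inhibitors, was not found under that name. A few genes of the lists are not reported here by name. The replicate numbers shared by the lines were not taken as pairs, since the deviations of same-numbered libraries correlated at 0.15, -0.02 and 0.17. Alternatives were DESeq2 1.42.0, its size factors in edgeR, library size alone, no filter and a minimum of 10 counts in every sample. Others were the replicate block, a loess correction (span 0.3) for transcript GC content and length, and both together. Further alternatives were glmTreat against a log2 fold change of 1 and each library left out in turn. For shares, their sums and the order of levels, the longest transcript was also used as gene length.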

Additional observations from a re-analysis of the deposited data

How the results depend on the processing

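Over 15 alternative settings, the 9 tested members kept their direction, except Btc, which kept it in 13. Against a log2 fold change of 1 (glmTreat), 1 member was higher and 0 lower, in place of 3 and 3. With 1 library left out, 2 to 3 members were called higher and 1 to 3 lower, the lower counts without MPC replicate 2 (lower members) or any MPC-PTX library (both directions), and 1 to 2 were higher by the rule of the study's methods, 2 without MPC replicate 1 (Ereg and Nrg1). With the replicate block, 3 members were called higher and 3 lower (Egfr adjusted p = 0.0492, Erbb2 0.0435), and the block changed no call of a member. All tested genes gave 1668 higher and 1841 lower calls, 1787 and 1717 with the replicate block, 138 and 255 with glmTreat, 2482 and 2425 with the correction for transcript GC content and length, 2201 and 2119 without MPC replicate 1, 3020 and 3227 without MPC replicate 3, 934 and 1222 without MPC replicate 2, and 803 to 840 and 1077 to 1122 without an MPC-PTX library. Beyond the stricter test of glmTreat, the cause was not tested. With the longest transcript as gene length, the share of Ereg differed by 5.60 percentage points in place of 7.59. Depth limits Epgn and the 5 untested relatives, and Areg with 73 to 201 counts is the least precise of the called members.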
